A study of Mus musculus with 12 samples.

Results

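The genes described here encode the subunits of the proteasome, its activators and its assembly factors. They are the rows of the ventricular count table whose symbol begins with Psma, Psmb, Psmc, Psmd, Psme, Psmf or Psmg followed by a digit, without pseudogene rows marked -ps, and with at least 10 counts in at least 6 of the 12 libraries. The rule took 49 of 54949 features, and all 49 passed the filter on low counts and were tested. By known role they are 8 α and 7 constitutive β genes of the core, 3 inducible β genes, 6 cap ATPases, 3 other base and 8 lid genes of the cap, 5 activator genes, 1 inhibitor, and 4 core and 3 cap assembly factors. The remaining member, Psmc3ip, is caught by its symbol and encodes a meiotic recombination factor that is not a proteasome subunit.

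The proteasome is the protease that degrades ubiquitin-tagged proteins. Its barrel-shaped 20S core is closed by rings of α subunits around rings of β subunits, of which β1, β2 and β5 carry the catalytic sites, and the 19S cap recognises, unfolds and feeds in the substrate through its base, which holds the ATPases, and its lid. Interferon and immune cells bring in the inducible subunits β1i, β2i and β5i, encoded by Psmb9, Psmb10 and Psmb8, which replace the constitutive ones to form the immunoproteasome, and the heart relies on the proteasome to turn over its contractile proteins.

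RNA was taken from the ventricles, with the atria cut away, of male wild-type C57BL/6N mice, and poly-A transcripts were sequenced. The study set mice modelling heart failure in which the ejection fraction is preserved, made by a high-fat diet and the nitric oxide synthase inhibitor L-NAME at 0.5 g/L in drinking water for 5 weeks from 8 weeks of age, against mice on a normal diet and plain water. For all 12 samples the labels contradict each other. Libraries named HF-1 to HF-6 carry the titles and treatment of control mice, and libraries named con-1 to con-6 carry those of the model. The groups are therefore called HF-named and con-named (6 libraries each), every difference is given as HF-named over con-named, and which group was treated cannot be told apart. The design text speaks of 5 samples per group, and the labels do not say that each library came from its own mouse, so p-values measure only the spread between these samples.

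Total counts were 17348500 ± 3068220 in HF-named and 17049500 ± 1557160 in con-named libraries (SD, n = 6 each), with mitochondrial transcripts at 25.2 ± 1.19% and 22.4 ± 1.10% of them. Of 15114 genes tested, 2016 (13.3%) were called at an adjusted p of 0.05 (edgeR's quasi-likelihood test, Benjamini-Hochberg adjustment), 1252 (8.28%) higher and 764 (5.05%) lower. The 6 cardiomyocyte markers checked, among them Myh6, Tnnt2 and Myl2, summed to 54809 to 61348 CPM (counts scaled to library size) in HF-named and 52545 to 59932 CPM in con-named libraries. Of the summed markers of other cell types, macrophage markers were at 188 to 251 CPM in HF-named and 230.1 to 309 CPM in con-named libraries, and endothelial markers at 499.9 to 775 and 680.3 to 975 CPM, groups that overlapped. Fibroblast markers were at 921 to 1153 CPM in HF-named and 1175 to 1439 CPM in con-named libraries, groups that did not overlap.

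Proteasome genes were called about as often as genes at large, and in both directions. Psmd1 and Psmd7, which encode a scaffold of the cap's base and a lid subunit, rose in HF-named libraries. Psmb4 and Psmb6 of the β ring, the cap ATPase gene Psmc5 and the activator gene Psme1 fell. That is 2 higher and 4 lower of 49, or 12.2% called, against 13.3% of all genes, and the other 43 were not called. Changes were small, with folds of 0.830 (Psmb8) to 1.17 (Psmd1), or -0.27 to 0.22 on the log2 scale. The median was -0.04, against -0.01 over all genes tested, and 34 of 49 estimates (69.4%) were negative, against 52.7% of all genes. Scaling by library totals, which moved the median of all genes to -0.13, called 0 members higher and 18 lower. Under that scaling 36.7% of members were called, against 20.3% of all genes, so members were called more often than genes at large. Psmd1 and Psmd7 then had an adjusted p of 0.0947 and 0.181 by edgeR. At an unadjusted p under 0.05 stood 18 members (36.7%), against 28.6% of all genes. Summed over the 49 genes, the proteasome transcripts stood at 3478 ± 93.6 CPM in HF-named and 3469 ± 136 CPM in con-named libraries (SD, n = 6 each). In bulk tissue, fewer cells of a type and less RNA per cell cannot be told apart.

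**Figure D1:**
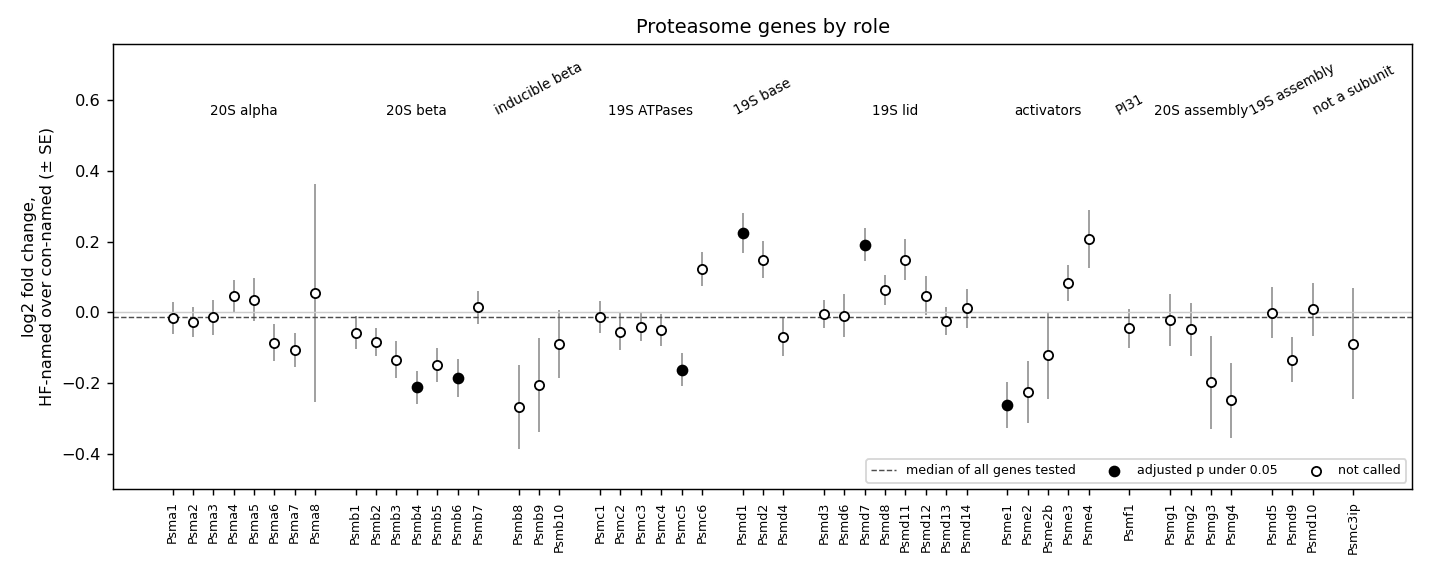
Log2 fold change of each of the 49 genes (HF-named over con-named, vertical axis, ± SE), grouped by role along the horizontal axis. Filled points are the 6 genes with an edgeR adjusted p under 0.05, open points the other 43, and the dashed line is the median of all genes tested (-0.01); 6 of the 7 constitutive β genes lie below 0.

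Levels between genes are compared per gene length, in the authors' FPKM, which divide counts by gene length and library total. That length was 899 bases for Psmb5, 1234 for Psma6 and 3421 for Psmb7, equal to all annotated exon bases of each gene. The length of the transcripts present was not measured, so FPKM ranks depend on annotation. By mean CPM, Psmb4 (100) and Psmb7 (88.6) stood above Psmb5 (58.3) in HF-named libraries, as in con-named ones (116, 87.8 and 64.6). The ring genes with the highest FPKM were Psma6, an α subunit, at 77.0 ± 2.85 FPKM in HF-named and 88.4 ± 6.40 FPKM in con-named libraries, and Psmb5, which encodes the chymotrypsin-like catalytic subunit β5, at 62.3 ± 4.10 and 74.6 ± 5.05 FPKM. In the cap the ATPase genes Psmc1, Psmc3 and Psmc5 led, Psmc1 with 66.9 ± 2.50 FPKM in HF-named and 73.1 ± 2.47 FPKM in con-named libraries. Of the immunoproteasome genes Psmb8 and Psmb9 lay far lower, with Psmb9 at 2.71 ± 0.410 FPKM in HF-named and 3.39 ± 0.926 FPKM in con-named libraries, while Psmb10 was at 20.5 ± 3.40 FPKM in HF-named and 23.6 ± 4.22 FPKM in con-named libraries. Of the assembly factors Psmg3 was lowest, at 0.938 ± 0.141 and 1.16 ± 0.164 FPKM. Psma8, which encodes an α subunit known from the testis, was the lowest member of all at 0.392 ± 0.187 FPKM in HF-named and 0.390 ± 0.116 FPKM in con-named libraries. That library total is taken whole, mitochondrial transcripts included, whereas CPM are scaled by TMM, so the same gene can stand lower in FPKM in the HF-named group and level in CPM. The members as a whole took 0.334% of all counts in HF-named and 0.360% in con-named libraries.

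**Figure D2:**
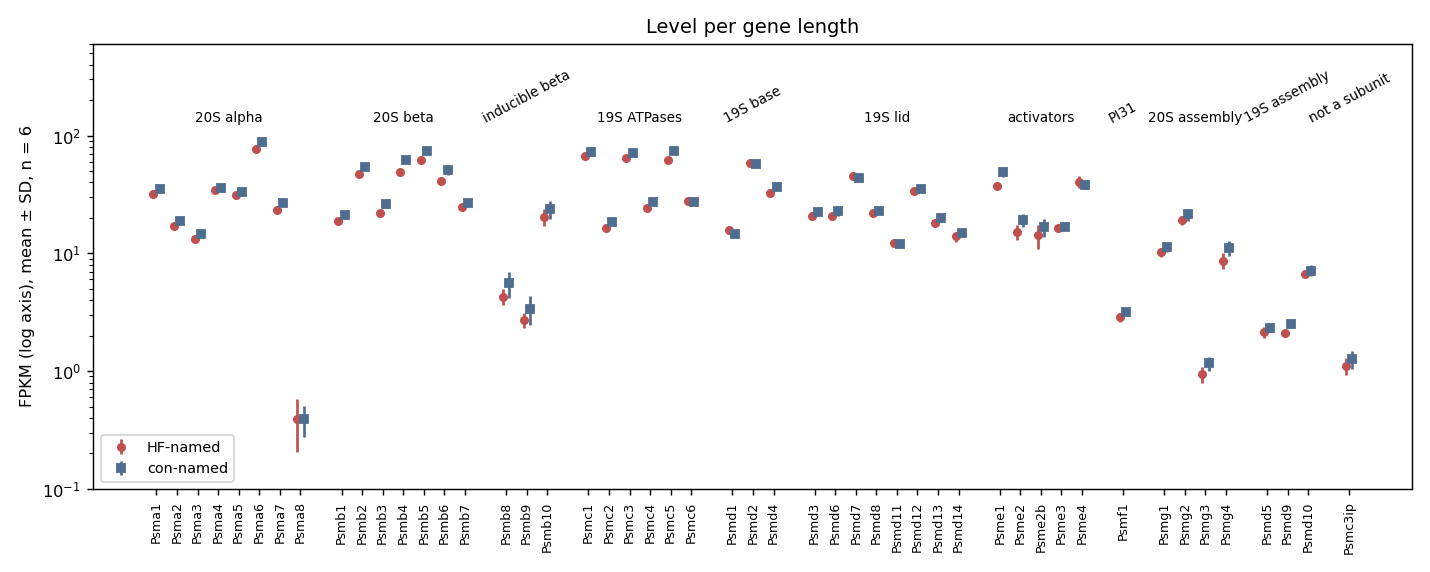
FPKM of each proteasome gene (log axis; points are means of 6 libraries, bars ± SD), HF-named circles left and con-named squares right of each gene, grouped by role. Psma6 tops both groups (77.0 and 88.4 FPKM) and Psma8 is lowest (0.392 and 0.390 FPKM), with Psmb8 and Psmb9 well below the constitutive β genes.

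Psma8 is also the member nearest to the rule's threshold, with 10 or more counts in 7 libraries and 133 counts in all, while the other 48 had 10 or more in all 12. Psmb11, the thymus-specific β5t gene, stands just outside with 2 counts in all 12 libraries together. The 4 pseudogene rows Psmb5-ps, Psmb6-ps, Psmb6-ps2 and Psmb7-ps2 held 0 to 2 counts each.

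Short stretches of RefSeq promoters show which of these genes carry letters that match the motifs of factors known to drive the proteasome. Binding was not measured. NFE2L1 (also called NRF1) binds antioxidant response elements and is known to raise proteasome genes together when proteasome activity falls, and interferon acts through interferon-stimulated response elements and gamma-activated sites. RefSeq windows (GRCm38.p6, 250 bases before to 50 after each start) matched 41 of the 49 members by symbol. Printed are 120 bases before and 30 after the start of 5 of them: Psmb5, Psmb6 and Psme4 hold the antioxidant response core, Psme1 the interferon-stimulated core and Psmb8 the gamma-activated site, with matches in capitals and 5′ to 3′ on the gene's strand. The capitals in Psme1, and the later ones in Psme4, are matches on the opposite strand, and the earlier capitals in Psme4 are an ETS site.
Psmb5 (chr14:54617966-54618115, minus strand): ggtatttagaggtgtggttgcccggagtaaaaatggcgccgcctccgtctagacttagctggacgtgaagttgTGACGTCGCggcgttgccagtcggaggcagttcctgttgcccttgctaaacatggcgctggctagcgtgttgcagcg
Psmb6 (chr11:70525237-70525386, plus strand): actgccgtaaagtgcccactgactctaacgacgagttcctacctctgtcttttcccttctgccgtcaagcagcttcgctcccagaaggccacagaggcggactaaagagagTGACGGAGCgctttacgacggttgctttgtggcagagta
Psme4 (chr11:30771655-30771804, plus strand): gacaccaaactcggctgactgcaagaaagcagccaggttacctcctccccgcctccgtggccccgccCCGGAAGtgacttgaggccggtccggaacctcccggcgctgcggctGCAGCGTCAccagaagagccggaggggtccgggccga
Psme1 (chr14:55578374-55578523, plus strand): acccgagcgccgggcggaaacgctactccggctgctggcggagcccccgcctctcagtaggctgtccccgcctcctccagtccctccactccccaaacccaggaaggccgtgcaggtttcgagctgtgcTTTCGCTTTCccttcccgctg
Psmb8 (chr17:34198075-34198224, plus strand): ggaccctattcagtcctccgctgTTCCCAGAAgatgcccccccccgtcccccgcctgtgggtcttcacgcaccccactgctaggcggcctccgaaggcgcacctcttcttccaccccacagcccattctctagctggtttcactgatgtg

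Letters were searched on both strands and overlaps between motifs were allowed. The antioxidant response core TGACNNNGC was in 6 of the 41 windows (14.6%: Psmb5, Psmb6, Psmc6, Psmd9, Psmd12 and Psme4), against 14% of the windows of 27025 genes. The interferon-stimulated core (GAAA, any 2 bases, GAAA) was in 5 (12.2%: Psmb3, Psmd4, Psmd9, Psme1 and Psmg4), against 3.99% of genes, and the gamma-activated site TTCNNNGAA in 3 (7.32%: Psmb8, Psmd2 and Psmg1), against 9.55%. The ETS site CCGGAAG was in 15 (36.6%) against 9.93% of genes, and the NF-Y box CCAAT in 14 (34.1%) against 41.1%. Of the 6 members with the antioxidant core, Psmb6 fell and the other 5 were not called by edgeR (Psmb5 was by DESeq2), with log2 fold changes of -0.15 (Psmb5), -0.13 (Psmd9), 0.05 (Psmd12), 0.12 (Psmc6) and 0.21 (Psme4). A match is a description of letters, not of binding.

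The α ring gates the entrance of the core. None of its 8 genes was called by edgeR, DESeq2 or limma-voom, where edgeR called 13.3% of all genes. At an unadjusted p under 0.05 stood 1 of the 8, against 28.6% of all genes. This was Psma7, with a log2 fold change of -0.11 (SE 0.05, adjusted p = 0.159 by edgeR). The median of the 8 was -0.01, as was that of all genes at 2 decimals, and their estimates ran from -0.11 to 0.05. Summed, the α genes stood at 521 ± 10.7 CPM in HF-named and 531 ± 29.8 CPM in con-named libraries (SD, n = 6 each).

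Among the 7 constitutive β genes 2 fell and 0 rose, where 5.05% of all genes fell and 8.28% rose. Their median log2 fold change was -0.13. At an unadjusted p under 0.05 by edgeR stood 5 of the 7, against 28.6% of all genes. DESeq2 called 3 of the 7, against 15.6% of all genes. Psmb4, which encodes the non-catalytic β7 subunit (ENSMUSG00000005779, GRCm38 chromosome 3, 94884093 to 94886961), had a lowest, median and highest level of 92.2, 101 and 107 CPM in HF-named libraries, against 108, 117 and 123 CPM in con-named libraries. Every HF-named library lay below every con-named one, as was so for 1.95% of all genes tested. On the log2 scale the change was -0.21 (SE 0.05, adjusted p = 0.00811 by edgeR), and the call held in all 12 fits that left out a library.

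Psmb6 encodes the caspase-like catalytic subunit β1 (ENSMUSG00000018286, chromosome 11, 70525367 to 70527858; its promoter letters are printed above). Its lowest, median and highest levels were 75.4, 81.0 and 84.5 CPM in HF-named libraries, against 81.8, 91.8 and 101 CPM in con-named libraries. The groups overlapped, with 3 of 6 HF-named libraries below every con-named one. This gave a log2 fold change of -0.19 (SE 0.05, adjusted p = 0.0300 by edgeR). This call was lost without HF-named replicate 1 (0.0644), HF-named replicate 4 (0.0607), con-named replicate 1 (0.0619) or con-named replicate 5 (0.0505), and without the filter on low counts (0.0525), all edgeR adjusted p.

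Psmb5, the β5 gene, narrowly missed the threshold. It had 55.6, 58.5 and 60.3 CPM as lowest, median and highest level in HF-named libraries, against 59.0, 63.9 and 69.8 CPM in con-named libraries, with 3 of 6 HF-named libraries below all con-named ones. The log2 fold change was -0.15 (SE 0.05, adjusted p = 0.0510 by edgeR), and the gene lies at the threshold. It was called lower by DESeq2 (adjusted p = 0.0303), and by edgeR with RLE scaling (0.0496), library totals (0.00614), a filter of 1 CPM in 6 libraries (0.0363), mitochondrial transcripts left out (0.0444) or without con-named replicate 2 (0.0239). It was not called by limma-voom, without a filter or with the length and GC offset (-0.02). Of its 100-base words, 22.2% also occur in other genes (Gm3375 and Mir686), so its counts are uncertain to that extent.

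Psmb7, which encodes the trypsin-like catalytic subunit β2, had 84.8, 88.4 and 93.0 CPM in HF-named libraries, against 82.0, 87.0 and 94.5 CPM in con-named libraries, and the groups overlapped fully. Its log2 fold change was 0.01 (SE 0.05, adjusted p = 0.879 by edgeR). Psmb7 shares 11.8% of its exon bases with Nek6 on the opposite strand. The other β genes, the structural subunits Psmb1, Psmb2 and Psmb3, had log2 fold changes of -0.06, -0.08 and -0.13 and were not called. Summed over the 7 genes, the β ring stood at 529 ± 7.92 CPM in HF-named and 574 ± 29.0 CPM in con-named libraries (SD, n = 6 each).

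**Figure D3:**
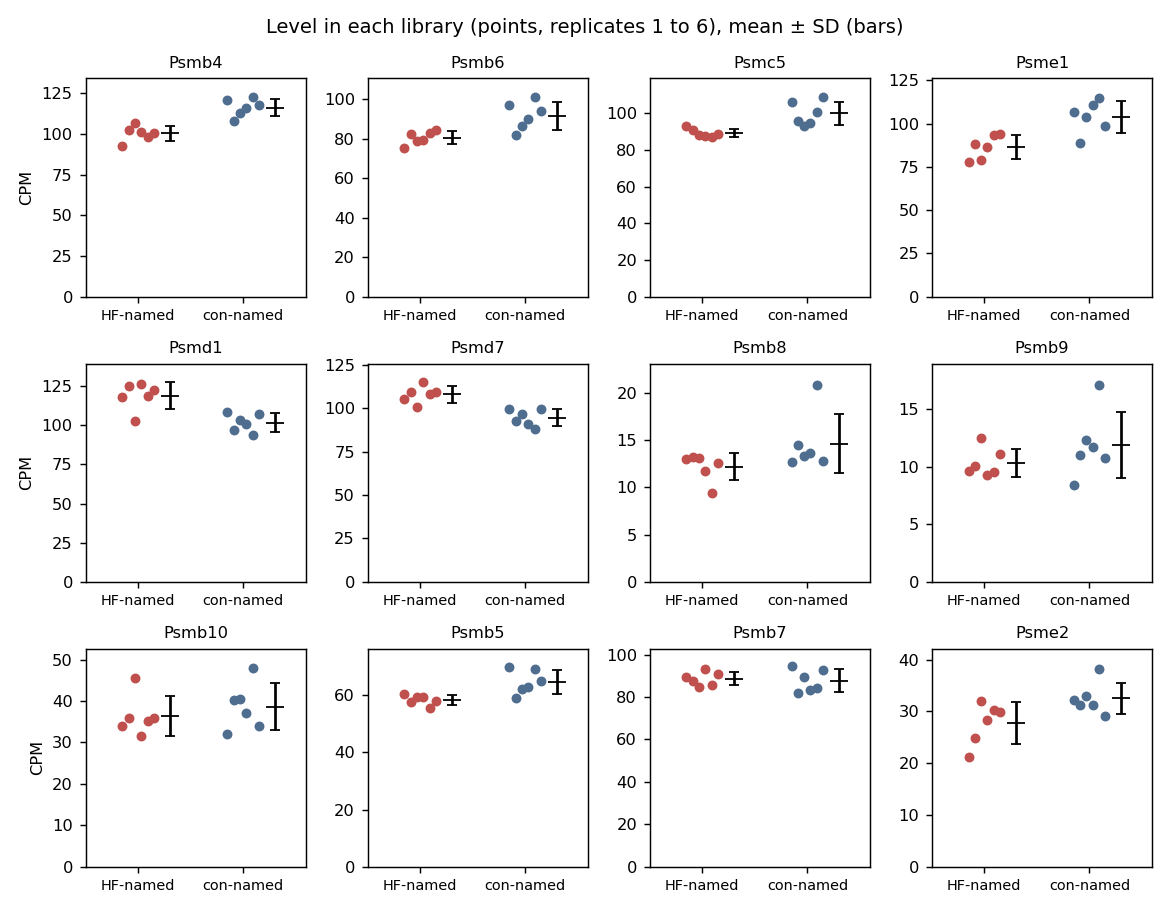
CPM in each library (points; HF-named left in red, con-named right in blue; replicates 1 to 6 from left to right), with mean ± SD beside them, for 12 proteasome genes. For Psmb4 and Psmc5 every HF-named point lies below, and for Psmd7 above, every con-named point, while Psmb8, Psmb9 and Psmb10 overlap and are highest in con-named replicate 5.

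The 3 immunoproteasome genes were not called by edgeR, DESeq2 or limma-voom, where edgeR called 13.3% of all genes. Of the 3, 1 (Psmb8) had an unadjusted p under 0.05, against 28.6% of all genes. Psmb8 encodes β5i (ENSMUSG00000024338, chromosome 17, 34197721 to 34201454) and had 9.42, 12.8 and 13.2 CPM as lowest, median and highest level in HF-named libraries, against 12.7, 13.5 and 20.8 CPM in con-named libraries. The groups overlapped, with 3 of 6 HF-named libraries below every con-named one, and con-named replicate 5 stood far above the next library of its group (14.5 CPM). On the log2 scale the difference was -0.27 (SE 0.12, adjusted p = 0.151 by edgeR). In the 12 fits without a library it ran from -0.31 to -0.15, the latter without con-named replicate 5. Psmb8 shares 14.7% of its exon bases with Gm20496 on the opposite strand.

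Psmb9, the β1i gene, lies next to the peptide transporter gene Tap1 in the histocompatibility region of chromosome 17 (34181987 to 34187764) and shares 5.79% of its exon bases with it on the opposite strand. It had 9.24, 9.82 and 12.4 CPM in HF-named libraries, against 8.40, 11.4 and 17.1 CPM in con-named libraries, with full overlap. This gave a log2 fold change of -0.21 (SE 0.13, adjusted p = 0.335 by edgeR). In the 12 fits without a library it ran from -0.29 to -0.08, the latter without con-named replicate 5. Psmb10, the β2i gene, had 31.5, 35.5 and 45.6 CPM in HF-named libraries, against 32.1, 38.7 and 47.9 CPM in con-named libraries. Its log2 fold change was -0.09 (SE 0.10, adjusted p = 0.587 by edgeR), with -0.03 without con-named replicate 5, -0.05 without HF-named replicate 4, -0.14 without con-named replicate 1 and -0.16 without HF-named replicate 3.

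The inducible genes varied more between libraries than the median member. Coefficients of variation for Psmb8, Psmb9 and Psmb10 were 11.9, 11.8 and 13.2% in HF-named and 21.3, 24.3 and 14.5% in con-named libraries, where the median over all 49 members was 5.54% and 6.65%. Psma8 varied more than all 3, at 46.8% in HF-named and 32.4% in con-named libraries, and Psme2b (21.2%), Psmc3ip (18.3%), Psme2 (14.3%) and Psmg3 (13.7%) did so in HF-named libraries. Con-named replicate 5 held the highest level of all 3 genes in its group, and HF-named replicate 3 that of Psmb9 and Psmb10 in its group. The same 2 libraries held the highest summed T and NK cell markers of their groups, 7.45 CPM in HF-named replicate 3 and 8.05 CPM in con-named replicate 5. The 8 such markers summed to 4.39 to 7.45 CPM in HF-named and 3.40 to 8.05 CPM in con-named libraries. Of these, 4 passed the filter on low counts, and none of the 4 was called by edgeR, DESeq2 or limma-voom. Of the 4, 1 had an unadjusted p under 0.05, against 28.6% of all genes. HF-named replicate 3 and con-named replicate 5 were also highest in their groups for summed dendritic cell markers (9.32 and 7.26 CPM). The same held for genes of antigen processing for MHC class I (1769 and 1916 CPM). In the con-named group, however, replicate 2 was highest in B cell and endothelial markers and replicate 4 in macrophage markers. HF-named replicate 3 was highest of its group in these 3 lists, but lowest in neutrophil markers (5.46 CPM). For summed interferon response genes and regulators it stood at 846 CPM, below HF-named replicates 5 (856 CPM) and 6 (930 CPM). Con-named replicate 5 was highest of its group there (849 CPM). The part of these cell types in the levels of the inducible genes was not tested.

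Because each inducible subunit takes the place of a constitutive one, the ratio of the 2 genes' counts within a library does not depend on scaling between libraries. For Psmb8 to Psmb5 the counts of the inducible gene were 16.9 to 22.9% of the constitutive one in HF-named and 18.2 to 30.2% in con-named libraries. For Psmb9 to Psmb6 the range was 11.5 to 15.8% in HF-named and 8.66 to 16.9% in con-named libraries, and for Psmb10 to Psmb7 it was 33.9 to 53.7% and 34.0 to 56.8%. The groups overlapped in all 3 ratios. The mean log2 ratios differed by -0.10, 0.00 and -0.10 (HF-named minus con-named), with p = 0.450, 0.972 and 0.491 in an exact two-sided permutation test, or 0.737, 0.972 and 0.737 adjusted over the 3. Per length, Psmb8 stood at 0.0689 of the FPKM of Psmb5 in HF-named and 0.0748 in con-named libraries, Psmb9 at 0.0657 and 0.0667 of Psmb6, and Psmb10 at 0.826 and 0.887 of Psmb7. These per-length ratios depend on the gene lengths behind FPKM, which were 2736 bases for Psmb8 and 899 for Psmb5. They were 3659 for Psmb9 and 1872 for Psmb6, and 1705 for Psmb10 and 3421 for Psmb7.

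**Figure D4:**
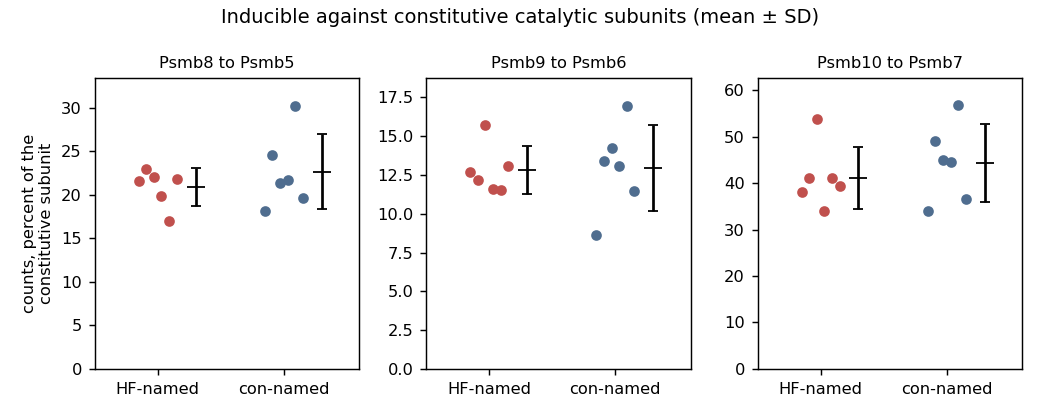
Counts of each inducible catalytic subunit gene as percent of its constitutive counterpart's (vertical axis, from 0), one point per library with mean ± SD, HF-named left and con-named right. The groups overlap in all 3 panels, and con-named replicate 5 is the highest point of its group in each, at 30.2, 16.9 and 56.8%.

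In the cap's base, the 6 ATPase genes included 1 that fell and 0 that rose, where 5.05% of all genes fell and 8.28% rose. Psmc5, which encodes the ATPase Rpt6 (ENSMUSG00000020708, chromosome 11, 106256154 to 106263120), had 87.2, 88.5 and 93.0 CPM as lowest, median and highest level in HF-named libraries, against 93.2, 98.4 and 109 CPM in con-named libraries. Every HF-named library lay below every con-named one, though the nearest levels were 93.0 and 93.2 CPM. The log2 fold change was -0.16 (SE 0.05, adjusted p = 0.0311 by edgeR). Leaving out any of 6 libraries lost this call: HF-named replicates 2 (0.0516), 4 (0.0645), 5 (0.0608) and 6 (0.0531) and con-named replicates 1 (0.0659) and 6 (0.0597). It was also lost without the filter on low counts (0.0681), all edgeR adjusted p.

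Of the other ATPase genes, Psmc6 (Rpt4) had a log2 fold change of 0.12 (SE 0.05, adjusted p = 0.106 by edgeR), and Psmc1, Psmc2, Psmc3 and Psmc4 ran from -0.05 to -0.01. None of these 5 was called. Summed, the ATPase genes stood at 642 ± 12.2 CPM in HF-named and 656 ± 28.7 CPM in con-named libraries (SD, n = 6 each).

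The large scaffold Rpn2 of the base is encoded by Psmd1 (ENSMUSG00000026229, chromosome 1, 86064387 to 86139151), which rose. It had 103, 120.4 and 127 CPM as lowest, median and highest level in HF-named libraries, against 93.5, 102 and 109 CPM in con-named libraries. In 5 of 6 HF-named libraries its level exceeded that of each con-named library, and HF-named replicate 3, the lowest, lay among them. On the log2 scale the change was 0.22 (SE 0.06, adjusted p = 0.0158 by edgeR), and the call held in all 12 fits without a library. Psmd2, the gene of the companion scaffold Rpn1, had 219.7, 253 and 259 CPM in HF-named libraries, against 202, 225 and 239.7 CPM in con-named libraries. It missed the threshold (log2 fold change 0.15, SE 0.05, adjusted p = 0.0683 by edgeR), and DESeq2 called it (0.0362). Of the 12 edgeR fits without a library it passed in 1, without HF-named replicate 3 (0.0167), with adjusted p up to 0.1605 in the others. The ubiquitin receptor gene Psmd4 (Rpn10) had a log2 fold change of -0.07 (adjusted p = 0.417 by edgeR).

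The lid, which removes ubiquitin from the substrate, had 1 gene of 8 that rose and 0 that fell. Of all genes, 8.28% rose and 5.05% fell. The median log2 fold change of the lid genes was 0.03. Psmd7 encodes Rpn8, the partner of the deubiquitinating subunit (ENSMUSG00000039067, chromosome 8, 107580381 to 107588464). It had 100.6, 109 and 115 CPM as lowest, median and highest level in HF-named libraries, against 87.8, 94.8 and 99.7 CPM in con-named libraries. All 6 HF-named libraries exceeded all 6 con-named ones, as was so for 3.41% of all genes. This gave a log2 fold change of 0.19 (SE 0.05, adjusted p = 0.0143 by edgeR), held in all 12 fits without a library.

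Psmd14, the gene of the deubiquitinating subunit Rpn11 itself, had a log2 fold change of 0.01 (SE 0.06, adjusted p = 0.920 by edgeR). Psmd11 (Rpn6), a lid scaffold, stood at 81.3 ± 5.31 CPM in HF-named and 73.3 ± 5.63 CPM in con-named libraries (SD, n = 6 each). Its log2 fold change was 0.15 (SE 0.06, adjusted p = 0.101 by edgeR, with 0.0282 without HF-named replicate 3 and up to 0.236 without another library). The other 5 lid genes, Psmd3, Psmd6, Psmd8, Psmd12 and Psmd13, ran from -0.02 to 0.06 and were not called. Summed, the lid genes stood at 626 ± 13.0 CPM in HF-named and 600.4 ± 25.8 CPM in con-named libraries, and the 3 non-ATPase base genes at 462 ± 28.3 and 425 ± 21.3 CPM.

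Activators bind the ends of the core in place of the 19S cap. Psme1 and Psme2 encode the α and β subunits of PA28, an interferon-inducible ring that is known to favour antigenic peptides. Psme1 (ENSMUSG00000022216, chromosome 14, 55578123 to 55581529; promoter letters above) fell. It had 77.8, 87.1 and 94.2 CPM as lowest, median and highest level in HF-named libraries, against 88.9, 105 and 115 CPM in con-named libraries, with 4 of 6 HF-named libraries below every con-named one. The log2 fold change was -0.26 (SE 0.07, adjusted p = 0.0161 by edgeR), and the call held in all 12 fits without a library. It did not hold with an offset for gene length and GC content (-0.15, adjusted p = 0.152 by edgeR).

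Psme2 had 21.3, 29.1 and 31.9 CPM in HF-named libraries, against 29.2, 31.7 and 38.2 CPM in con-named libraries, and the groups overlapped. Its log2 fold change was -0.23 (SE 0.09, adjusted p = 0.101 by edgeR). Psme2 and its near-identical copy Psme2b share reads, with 18.4% of the 100-base words of Psme2 also in Psme2b and 52.0% the other way, so how the reads divide between them is uncertain. Psme2b had a log2 fold change of -0.12 (adjusted p = 0.559 by edgeR).

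The nuclear activator gene Psme3 (PA28γ) had a log2 fold change of 0.08 (adjusted p = 0.309 by edgeR). Psme4, which encodes the large activator PA200, had 298, 358 and 428 CPM in HF-named libraries, against 262, 312 and 345 CPM in con-named libraries, the highest counts of any member though its transcript is also the longest. Its level in 4 of 6 HF-named libraries exceeded that of each con-named one. On the log2 scale the change was 0.21 (SE 0.08, adjusted p = 0.107 by edgeR, with 0.0365 without HF-named replicate 3 and up to 0.244 without another library). The core inhibitor gene Psmf1 (PI31) had a log2 fold change of -0.05 (adjusted p = 0.632 by edgeR).

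None of the 7 assembly factor genes was called by edgeR, DESeq2 or limma-voom, where edgeR called 13.3% of all genes. Of the 7, 2 had an unadjusted p under 0.05, against 28.6% of all genes. The 4 core chaperone genes were all estimated lower, with Psmg1 and Psmg2, which pair as α-ring chaperones, at log2 fold changes of -0.02 and -0.05 and Psmg3 and Psmg4 at -0.20 and -0.25 (adjusted p = 0.343 by edgeR and 0.131). Of the cap chaperone genes Psmd5, Psmd9 and Psmd10, Psmd9 had a log2 fold change of -0.13 (adjusted p = 0.172 by edgeR), and 25.5% of its exon bases overlap Gm26745 on the opposite strand. Psmd5 was at 0.00 and Psmd10 at 0.01. Psmc3ip, the member that is no subunit, stood at 2.10 ± 0.384 CPM in HF-named and 2.22 ± 0.365 CPM in con-named libraries (SD, n = 6 each) and was not called.

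Gene length moved with the fold changes, among all genes and among the proteasome genes. In 5 bins of equal gene number from the shortest to the longest genes, the median change of all genes tested was, on the log2 scale, -0.08, -0.06, -0.02, 0.01 and 0.06. Of the 49 proteasome genes 34 lie in the 2 bins of shortest genes, and the members' medians were -0.09, -0.02, -0.01, -0.02 and 0.10 in the 5 bins. Across genes, which are not independent replicates, Spearman's rho between length and log2 fold change was 0.389 over the 49 members and 0.235 over 14904 genes. Psmb4 and Psmb6, at 1951 and 1872 bases, and Psmc5, at 1394 bases, are in the bin of shortest genes, and Psmd1, at 7265 bases, in that of the longest. Psmd7, which rose, and Psme1, which fell, are of similar length, at 2261 and 2209 bases, but differ in GC content, at 49.7% and 56.2%. With an offset for gene length and GC content, a setting chosen after seeing the data, Psmb4, Psmd1 and Psmd7 were called and Psmb6, Psmc5 and Psme1 were not. Then 24 of the 49 estimates were negative, with a median of 0.01. Whether gene length or GC content caused the fold changes was not tested.

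**Figure D5:**
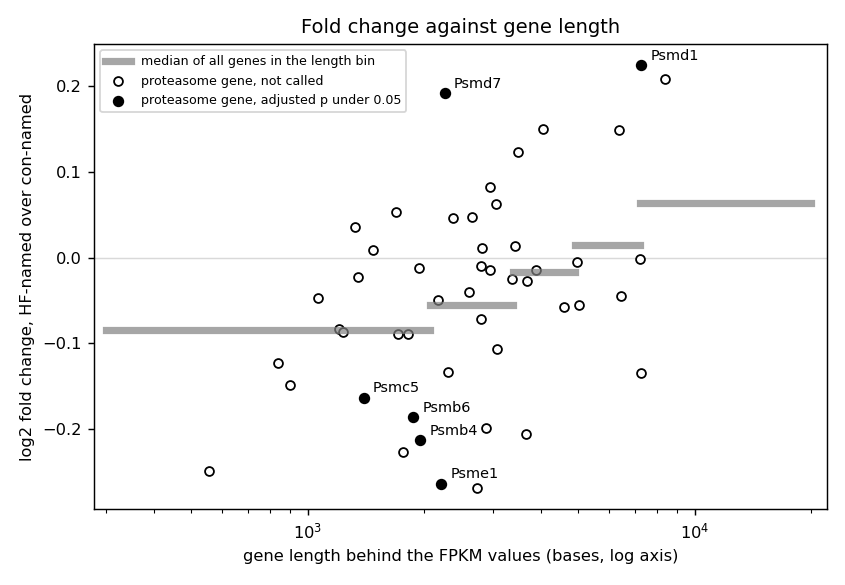
Log2 fold change (HF-named over con-named) of the 49 proteasome genes against gene length in bases (log axis), with filled points for an edgeR adjusted p under 0.05. Grey bars are the medians of all genes in each of 5 length bins, from -0.08 in the shortest to 0.06 in the longest. Psmb4, Psmb6, Psmc5 and Psme1 lie below the bar of their bin and Psmd1 and Psmd7 above.

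Partners of the proteasome that the symbol rule leaves out were counted from a list of pathway genes. Of 11 tested, 3 rose and 0 fell, where 8.28% of all genes rose and 5.05% fell, with a median log2 fold change of 0.03. Zfand5, a zinc-finger activator of the proteasome, stood at 162 ± 20.3 CPM in HF-named and 128 ± 5.98 CPM in con-named libraries (SD, n = 6 each; fold change on the log2 scale 0.34, adjusted p = 0.00665 by edgeR), with all HF-named libraries above all con-named ones. Ecpas, a scaffold that holds core and cap together (0.25, adjusted p = 0.0124 by edgeR), and Ube3c, a proteasome-bound ubiquitin ligase (0.21, adjusted p = 0.0468 by edgeR), also rose, and Ube3c passed in 2 of the 12 fits without a library (edgeR adjusted p up to 0.119). The core assembly factor gene Pomp (-0.17) was not called by edgeR (adjusted p = 0.0522) and was by DESeq2 (0.0329). The small lid gene Sem1 (-0.15) and the ubiquitin receptor gene Adrm1 (-0.02) were not called by edgeR, DESeq2 or limma-voom.

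Of 18 ubiquitin genes and shuttle factors that bring substrates to the proteasome, 3 rose and 0 fell, against the same 8.28% and 5.05% of all genes, with a median of 0.11. Among those that rose, Nploc4, a cofactor of the unfoldase VCP, had a log2 fold change of 0.24 (adjusted p = 0.0149 by edgeR) and the shuttle gene Rad23b one of 0.18 (adjusted p = 0.0213 by edgeR, up to 0.0548 without a library, passing in 8 of 12). DESeq2 also called the shuttle gene Ubqln4 (adjusted p = 0.0270, and 0.0522 by edgeR).

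The NFE2L1 pathway, which is known to adjust proteasome gene transcription, had 2 of 11 genes higher and 0 lower, against 8.28% and 5.05% of all genes, with a median log2 fold change of 0.12. Nfe2l1 itself rose most, at 752 ± 64.1 CPM in HF-named and 529 ± 45.2 CPM in con-named libraries (SD, n = 6 each; fold change on the log2 scale 0.51, SE 0.07, adjusted p = 0.000668 by edgeR), with all 6 HF-named libraries above all con-named ones. Mafg, which encodes a small MAF partner of NFE2L1, rose as well (0.23, adjusted p = 0.0119 by edgeR). Both calls held in all 12 fits without a library. Scaled by library totals, Nfe2l1 was called, and Mafg, Ecpas, Ube3c, Nploc4 and Rad23b were not (edgeR adjusted p of 0.0529 to 0.298). Genes of its processing, Ddi2, Ngly1, Vcp, Sel1l and Syvn1, were not called, with estimates of 0.00 to 0.16.

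No interferon response gene or regulator of 23 was called by edgeR or limma-voom, and DESeq2 called 1, which was Jak2. Of the 23, 5 had an unadjusted p under 0.05 by edgeR, against 28.6% of all genes. The gene of smallest p was the kinase gene Jak2 (log2 fold change 0.18, adjusted p = 0.0623 by edgeR). The list's median was -0.05. Of 10 genes of antigen processing for MHC class I, which receives proteasome products, 1 fell and 1 rose, with a median of -0.14. Over all genes tested, 5.05% fell and 8.28% rose. H2-D1, a class I heavy chain, stood at 234 ± 24 CPM in HF-named and 288 ± 43.7 CPM in con-named libraries (SD, n = 6 each; -0.30, adjusted p = 0.0391 by edgeR), and the chaperone gene Canx had a log2 fold change of 0.23 (adjusted p = 0.0487 by edgeR). The H2-D1 call passed in 4 and the Canx call in 3 of the 12 fits without a library (edgeR adjusted p up to 0.0830 and 0.119), and Canx was not called when scaled by library totals (0.163).

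Cell type markers moved with these groups and stand beside them as measured facts. Among all genes tested, 8.28% rose and 5.05% fell. Of 8 macrophage markers 3 fell and 0 rose (median log2 fold change -0.25), with Lyz2 at -0.39, Csf1r at -0.35 and Mrc1 at -0.25. Of 6 endothelial markers 3 fell (median -0.34), led by Vwf at -1.04, with Kdr at -0.46 and Emcn at -0.34, and of 6 fibroblast markers 3 fell (median -0.23), among them Dcn at -0.35. Of 6 cardiomyocyte markers Ryr2 rose (0.46) and 3 fell, among them Myl2 (-0.24) and Tnni3 (-0.25; median -0.10). Lyz2, Vwf, Dcn, Ryr2, Myl2 and Tnni3 kept their calls in all 12 fits without a library, while Csf1r passed in 4, Mrc1 in 3, Kdr in 3 and Emcn in 4. DESeq2 did not call Kdr (0.0694). No marker of B cells, neutrophils or dendritic cells was called by edgeR, DESeq2 or limma-voom, nor was any at an unadjusted p under 0.05. The part of these markers in the levels of Psme1, H2-D1 and the immunoproteasome genes was not tested.

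In the authors' deposited table, which tests the same groups, 2 of the 49 members were higher and 4 lower at an adjusted p under 0.05. Among all 33183 genes with an adjusted p there, 1125 were higher and 570 lower. Those genes are far more than the 15114 kept here by the filter on low counts. The share of all genes called there is therefore not comparable with the 13.3% given above.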

How the data were processed

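Poly-A RNA of mouse ventricles was sequenced in 12 libraries. The submitters' processing notes name the build mm10, cutadapt 1.15, HISAT2 2.0.5 and HTSeq 0.9.1. Whether the counting used strand, and which annotation, is not given in the sources used here. The deposited table holds raw counts per gene and FPKM values, which the authors made from count, length and library total. The authors' deposited comparison table holds group means of scaled counts (a signal), log2 fold changes and p-values before and after adjustment.

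Groups follow the library names. Genes were kept with filterByExpr, scaled by TMM and tested with edgeR 4.0.16 (quasi-likelihood, R 4.3.3, limma 3.58.1), two-sided, group as the only term, with Benjamini-Hochberg adjustment over all 15114 genes and a threshold of 0.05. The SE is the absolute log2 fold change over the square root of F. Subunit ratios used counts plus 0.5 and an exact permutation test. The steps were tested on simulated counts. Libraries of a group differed beyond sampling noise in all 30 pairs. Coordinates and overlaps are from GENCODE M21 (GRCm38). Intervals between libraries cover their spread only.

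The members and lists were chosen with earlier results of these data known. Values per library were given for the 6 catalytic genes, Psme1, Psme2 and the called gene of smallest p in each role. Psmd2 and Psme4 were added after their values were seen. Of each other list, up to 3 called genes of smallest p, or the 1 of smallest p, were named, with others as examples. 1 gene named by this rule is not reported here. There were 5 related and 8 marker lists. Alternatives were RLE scaling, library totals, no filter, 1 CPM in 6 libraries, a replicate block, DESeq2 1.42.0, limma-voom, leaving out mitochondrial transcripts or each library, and, added after seeing the data, a length and GC offset.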

Additional observations from a re-analysis of the deposited data

Results flagged for a closer look

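Values were compared within each group for every member and role sum, and 14 of 124 groups held a library set apart by Dixon's test, where chance gives about 1 in 20. HF-named replicate 3 was low for 3 cap genes, with Psmd1 at 102.5 CPM (median of its group 120.4), Psmd2 at 219.7 CPM (253) and Psmd11 at 71.1 CPM (83.3), and for the summed base genes without ATPases, at 407 CPM (471). The same library was high for the inducible gene Psmb10, at 45.6 CPM (35.5), and for the summed inducible genes, at 71.1 CPM (57.9). It was also the highest HF-named library in summed macrophage markers (251 CPM), endothelial markers (775 CPM) and B cell markers (9.65 CPM), and their part in these values was not tested. Without it, Psmd2, Psmd11 and Psme4 joined the genes called higher. Calls also rose among all genes, with 16.7% of all genes and 18.4% of members called, against 13.3% and 12.2% with all 12 libraries.

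Con-named replicate 1 was high for the ATPase gene Psmc1 at 149 CPM (median of its group 134), the α genes Psma6 at 120.9 CPM (102.6) and Psma8 at 1.04 CPM (0.556), and the β gene Psmb1 at 105.6 CPM (92.3). Con-named replicate 5 was high for the immunoproteasome gene Psmb8 at 20.8 CPM (13.5) and the core chaperone gene Psmg4 at 7.21 CPM (5.73). In the HF-named group, Psmd12 of the lid was high in replicate 4 at 103 CPM (92.0) and Psmb2 of the β ring in replicate 6 at 61.3 CPM (58.9).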

How the results depend on the processing

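Of the 49 members, 38 kept their sign in all 12 fits without a library, and Psmb4, Psmd1, Psmd7 and Psme1 also kept their call. RLE scaling called 7 members (with Psmb5), DESeq2 8 (with Psmb5 and Psmd2) and limma-voom 6. These were 14.3%, 16.3% and 12.2% of members, close to the 13.2%, 15.6% and 13.6% of all genes called in the same settings. Scaling by library totals moved the median of all genes to -0.13 and gave 483 genes higher and 2582 lower (15.8% of calls higher, against 62.1%), 0 members higher and 18 lower, and 3 related-list genes higher and 13 lower, against 9 and 1. Under totals, Psmb7 (-0.099), Psmd14 (-0.10), Psmd10 (-0.11), Psma5 (-0.077), Psmd8 (-0.052), Psma4 (-0.067), Psme3 (-0.032), Psmd12 (-0.066) and Psma8 (-0.057) turned negative. The replicate block gave 748 genes higher and 383 lower, members 0 and 2, and related genes 5 and 0. With the block, Psmd1 (0.05001), Psmd7 (0.0567), Psmb6 (0.0705) and Psmc5 (0.0745) lost their calls, all edgeR adjusted p. Same-numbered libraries correlated at -0.161 to 0.090 in their deviations from the group means, and only number 6 correlated best with its own. These values show no pairing by number, but they cannot exclude that same-numbered libraries were handled together. No filter left 2 members lower. The length and GC offset gave 494 genes lower, 1 member lower and 0 related genes lower, and turned Psmc3 (0.052), Psmc4 (0.018), Psma1 (0.011), Psmd13 (0.027), Psmb10 (0.035), Psmd6 (0.033), Psmd3 (0.040), Psmc1 (0.049), Psmg1 (0.052) and Psmg2 (0.027) positive. Related genes lower were 2 with 1 CPM in 6 libraries, DESeq2 or mitochondrial transcripts left out. With 1 CPM in 6 libraries Psmd10 was at -0.00202 and with limma-voom Psma8 at -0.015. The Psmb9 to Psmb6 difference was -0.026 from pooled counts.

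Without each library in turn, all genes gave 836 to 1581 higher and 500 to 969 lower, members 2 to 5 higher (5 without HF-named replicate 3) and 2 to 7 lower (2 without HF-named replicate 4 or con-named replicate 1, 7 without con-named replicate 2), and related genes 6 to 14 higher (14 without HF-named replicate 3) and 0 to 3 lower. The ratio differences ran from -0.16 to -0.015 (Psmb8 to Psmb5), -0.11 to 0.086 (Psmb9 to Psmb6) and -0.18 to -0.024 (Psmb10 to Psmb7). Signs turned for Psma1 (-0.042 to 0.0094), Psma3 (-0.036 to 0.012), Psma8 (-0.18 to 0.25), Psmb7 (-0.013 to 0.037), Psmc1 (-0.034 to 0.016), Psmd10 (-0.027 to 0.047), Psmd14 (-0.015 to 0.039), Psmd3 (-0.020 to 0.0063), Psmd5 (-0.029 to 0.041), Psmd6 (-0.049 to 0.045), Psmg1 (-0.077 to 0.010) and, among markers, Ms4a1 (-0.33 to 0.54). The cause of these changes was not tested. Psma8, at 133 counts in all, is the member that depth limits most.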
